A study of Mus musculus with 6 samples.

Results

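The regions described here are KAP1 ChIP-seq peaks of the mouse ESC line BJ1 that had no counterpart in the reciprocal line JB1, no ZFP57 peak on them and no protein-coding gene start close by. They were chosen as the autosomal BJ1 KAP1 peaks that shared not even 1 bp with a peak of the JB1 KAP1 list or of either ZFP57 list, and that lay more than 1000 bp from every protein-coding gene start of the GENCODE M1 annotation on mm9. Of the 72535 BJ1 KAP1 peaks, 68471 were on autosomes and 35598 met the rule. These are called BJ1-only distal peaks below. They were thus chosen by the positions of the called peaks, and their absence from the JB1 list is not a result. The ZFP57 condition removed few peaks, since only 106 of the BJ1 KAP1 peaks absent from JB1 overlapped a ZFP57 peak, 51 of them one of the 1318 in BJ1 and 63 one of the 10667 in JB1.

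BJ1 is a male hybrid ESC line with a B6 mother and a JF1 father, and JB1 is the reciprocal male line with a JF1 mother and a B6 father. Both were untreated and grown without feeders in medium with serum and leukaemia inhibitory factor (LIF). Each line is a single line, and 1 library was made per line and antibody, so that line, cross and library cannot be told apart and no test across samples exists. The lists give positions without height, *P*-value or read counts, the depth of the libraries is unknown, and the BJ1 KAP1 list was longer (72535 peaks against 38713 in JB1), so a peak that is absent from JB1 may be one that did not pass the threshold there. Of the autosomal BJ1 KAP1 peaks 55% (37660 of 68471) overlapped no JB1 KAP1 peak, and the share was 58.6% among the 60788 without ZFP57 and away from gene starts. The BJ1-only distal peaks made up 52.0% of the autosomal list.

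KAP1 (Trim28) is a co-repressor that does not recognise DNA sequence itself. It is brought to chromatin by zinc-finger proteins with a KRAB domain, of which ZFP57 is one that acts at imprinting control regions, and it gathers the H3K9 methyltransferase SETDB1, HP1 proteins and histone deacetylases. In ESCs it is best known for silencing endogenous retroviruses and other repeated elements. KAP1 has also been mapped to promoters and to the 3′ exons of zinc-finger genes.

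Sequences of the regions are given first, as they show the range of what the set holds, from repeated elements to single-copy coding exons. The stretch most often repeated among the BJ1-only distal peaks was found by ranking the 32-mers by the number of peaks that held them in their central 600 bp, which is a choice made on the peaks themselves. The 6 leading 32-mers that were not simple tandem repeats and shared no 14 bases with each other turned out to be neighbours in 1 element. All 6 lay within the 185 bp shown here, from a 600 bp peak in an intron of *Dpp10*, a dipeptidyl peptidase-like gene. Capitals mark the 6 sequences, several of which overlap.

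Repeated element in *Dpp10* (chr1:125770492-125770676, plus strand of mm9): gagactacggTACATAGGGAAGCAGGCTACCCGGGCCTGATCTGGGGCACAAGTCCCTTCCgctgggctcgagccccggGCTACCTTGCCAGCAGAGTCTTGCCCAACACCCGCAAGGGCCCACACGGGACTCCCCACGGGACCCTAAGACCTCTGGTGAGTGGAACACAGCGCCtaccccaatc

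At the other end were CpG-rich peaks. Of the peaks eligible for display, the 4 with the most matches to the ZFP57 hexamer TGCCGC or its variant GGCCGC held 9, 8, 7 and 7 of them. By the rule no ZFP57 peak lay on them in either line. They were in the coding sequence of *Runx2*, a runt-domain transcription factor of bone, in coding sequence of *6330407J23Rik*, in coding sequence of *Itpkb*, an inositol trisphosphate kinase, and in an intron of *Fam19a5*. The 150 bp of each with the most matches are shown on the plus strand of mm9, with matches on either strand in capitals.

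Runx2 (chr17:44872251-44872400): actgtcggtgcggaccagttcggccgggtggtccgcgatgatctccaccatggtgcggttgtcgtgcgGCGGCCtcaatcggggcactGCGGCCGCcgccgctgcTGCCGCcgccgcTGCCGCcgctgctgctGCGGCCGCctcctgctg
6330407J23Rik (chr10:28867141-28867290): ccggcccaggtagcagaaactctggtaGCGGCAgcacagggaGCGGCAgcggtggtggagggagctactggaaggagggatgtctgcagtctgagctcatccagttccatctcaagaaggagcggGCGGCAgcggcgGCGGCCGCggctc
Itpkb (chr1:182262411-182262560): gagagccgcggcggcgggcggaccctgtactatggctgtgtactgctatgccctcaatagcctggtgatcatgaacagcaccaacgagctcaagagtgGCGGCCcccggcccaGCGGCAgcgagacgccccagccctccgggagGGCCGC
Fam19a5 (chr15:87454641-87454790): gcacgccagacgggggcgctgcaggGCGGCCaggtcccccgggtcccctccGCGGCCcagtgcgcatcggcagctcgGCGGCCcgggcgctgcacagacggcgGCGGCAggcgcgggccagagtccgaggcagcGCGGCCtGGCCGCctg

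The *Runx2* peak had 106 CpGs in 1050 bp and a GC content of 69.5%. A CpG ratio is the observed number of CpGs over that which the C and G content would give, and it was 0.843 in this peak. Among the eligible peaks with at least 20 CpGs, the highest ratios were 1.05 in a 450 bp peak on coding sequence of *Mpst*, a sulfurtransferase, and 0.986 in a 600 bp peak on coding sequence of *Atn1*, the atrophin-1 gene. Such peaks were a small part of the set. Of the 35598 BJ1-only distal peaks, 2.25% had a GC content of at least 50% and a CpG ratio of at least 0.6 over their central 600 bp (Clopper-Pearson 95% interval 2.1 to 2.41%). The share was 0.297% of 600 bp windows over 1000 bp from protein-coding starts. It was 7.66% of the distal BJ1 KAP1 peaks without ZFP57 that JB1 shared, and 1.00% of those in JB1 only. These intervals, here and below, cover counting error only.

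BJ1-only distal peaks were narrow. Their median width was 600 bp, the quartiles were 450 and 600 bp, and 10.2% (9.89 to 10.5%) reached 900 bp. The BJ1 distal peaks without ZFP57 that overlapped a JB1 KAP1 peak, of which there were 25190 and which are called shared peaks here, had a median of 750 bp, and 39.7% (39.1 to 40.3%) of them reached 900 bp. The 4700 distal peaks without ZFP57 that were in the JB1 list only were narrower still, with a median of 450 bp and 4.13% at 900 bp or more. A wider peak has more bases with which to overlap a peak of the other line, so width is tied to the rule that chose the sets. The width differences are therefore a description only. All edges lie on a grid of 150 bp, so widths are known in steps of that size. Although the BJ1-only distal peaks outnumbered the shared ones, they covered 20.4 Mb against 23.0 Mb.

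**Figure D1:**
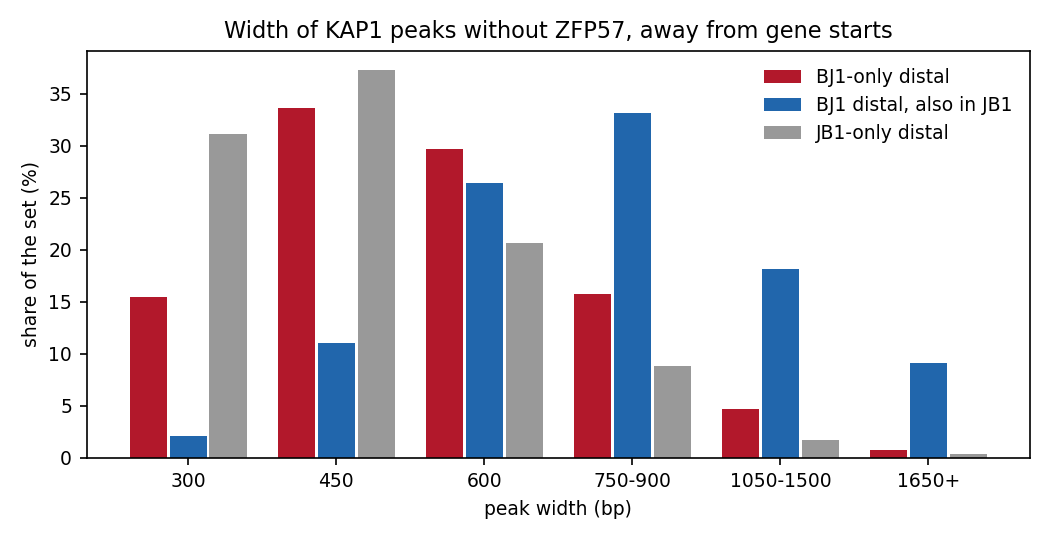
Width of the peaks on the x axis (bp, in classes) against the share of each set on the y axis (%), for BJ1-only distal peaks (red), BJ1 distal peaks that overlapped a JB1 KAP1 peak (blue) and JB1-only distal peaks (grey). The 450 bp class was the largest of the BJ1-only set at 33.6%, whereas the shared set had 26.4% at 600 bp and 33.1% in the class of 750 and 900 bp, which pools 2 grid widths. Width is tied to the overlap rule that chose the sets.

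The 10 widest BJ1-only distal peaks were between 4800 and 13800 bp, and 7 of them lay in a stretch of chromosome 4 from 145 to 147 Mb among *Zfp* and predicted (*Gm*) genes. The widest peak (13800 bp, chr8:19852951-19866750) was 66.5 kb from *Gm15319* and 178 kb from the nearest JB1 KAP1 peak. The next (11700 bp, chr4:146993551-147005250) lay on *2610305D13Rik*. Of the others on chromosome 4, one (10200 bp) overlapped *Gm13242*, one (5850 bp) overlapped *Gm13154*, one of the same width lay in an intron of *Zfp534*, and those of 6750, 6000 and 4800 bp were closest to *Gm13145*, *Gm13225* and *2610036A22Rik*. The remaining ones were near *Gm8104* on chromosome 14 (7350 bp) and 4.32 kb from *Zfp808* on chromosome 13 (6600 bp), where *Zfp* genes encode zinc-finger proteins. In 8 of the 10, more than 50% of the 32-mers in the central 600 bp occurred 2 or more times in the genome.

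Repeated sequence was measured in the same way for every peak, as the number of places in mm9, on both strands, where each 32-mer of the central 600 bp occurs. These 600 bp were centred on the peak whatever its width, here and wherever they are named. For narrower peaks they took in sequence beside the peak. Peaks of 300 and 450 bp made up 15.4% and 33.6% of the BJ1-only set. They were 2.10% and 11.1% of shared peaks and 31.2% and 37.3% of JB1-only distal peaks. Among BJ1-only distal peaks, 27.4% (26.9 to 27.9%) were mostly repeated, meaning that more than 50% of their 32-mers had 2 or more copies. The same held for 12.3% of autosomal 600 bp windows, taken at every 100th window, for 63.95% of the shared peaks and for 57.3% of the JB1-only distal peaks. With 10 or more copies as the limit the shares were 14.6% in the BJ1-only set, 7.80% of windows, 47.6% of shared and 43.6% of JB1-only distal peaks. Conversely, 24.5% (24.1 to 24.96%) of BJ1-only distal peaks had no repeated 32-mer at all, against 7.99% of shared peaks, 15.9% of JB1-only distal peaks and 46.0% of windows. The BJ1-only peaks thus stood between the genome at large and the shared peaks on this measure.

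In the BJ1-only set the share of mostly repeated peaks moved over a smaller range with width than in the shared set. It was 28.7% at 300 bp, 25.9% (25.1 to 26.8%) at 600 bp, 31.3% (30.1 to 32.6%) at 750 to 900 bp and 33.9% (28.4 to 39.8%) in the 280 peaks of 1650 bp or more. In the shared set it was 58.7% at 300 bp, 53.2% at 600 bp and 84.6% at 1650 bp or more. At equal width the sets therefore remained apart. Reads of 50 bp single-end libraries are hard to place in repeated sequence, how reads with several placements were handled is not given in the sources used here, and the part of this in the lists was not tested.

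**Figure D2:**
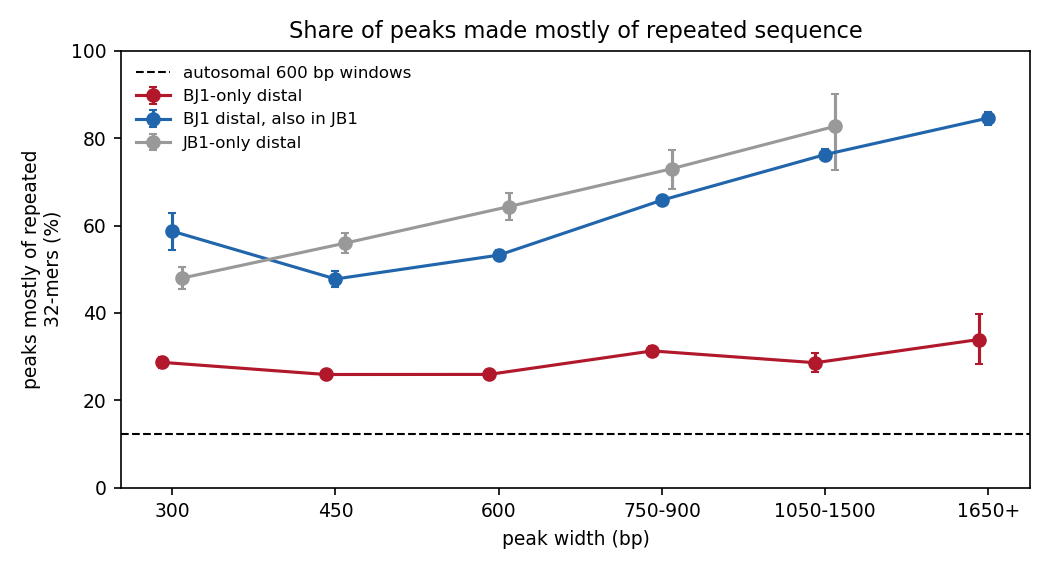
Peak width on the x axis (bp, in classes) against the share of peaks whose central 600 bp consisted mostly of 32-mers with 2 or more genome copies on the y axis (%), with Clopper-Pearson 95% intervals as bars and the share of autosomal windows as a dashed line. Classes of fewer than 50 peaks are not drawn. In the classes of 300 and 450 bp the central 600 bp reach beyond the peak. BJ1-only distal peaks (red) kept between 25.9 and 33.9%, below shared (blue) and JB1-only distal peaks (grey) in every class drawn.

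The element shown from *Dpp10* illustrates the repeated part. Counted over whole peaks, the sequence held by the most BJ1-only distal peaks was that at the right end of the stretch, beginning cctaag, with 1047 of them (2.94%), 681 shared peaks (2.70%) and 2 JB1-only distal peaks. Of its 2807 autosomal copies, 84.3% lay in a BJ1 KAP1 peak of whatever kind and 25.4% in a JB1 KAP1 peak. The other 5 were more frequent among shared than among BJ1-only distal peaks. The one in the middle of the stretch, beginning gctacc, had 5405 copies in the genome and was in 1008 BJ1-only distal peaks (2.83%), 892 shared peaks (3.54%) and 5 JB1-only distal peaks (0.106%). Over the 6 sequences, the share of autosomal copies in BJ1 KAP1 peaks ran from 84.3 to 99.6% and that in JB1 KAP1 peaks from 25.4 to 50.5%. One or more of the 6 occurred in 1399 BJ1-only distal peaks (3.93%) and in 3.89% of shared peaks. For the 6 sequences, 32.7 to 46.2% of the autosomal copies lay in BJ1-only distal peaks and 37.2 to 65.5% in shared peaks. No family name is given to it, as no repeat annotation was used here.

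By position, 63.0% (62.5 to 63.5%) of BJ1-only distal peaks lay between genes, 29.7% (29.2 to 30.2%) in introns and 7.28% (7.01 to 7.56%) touched an exon, of which 4.61% of all the peaks touched coding sequence. Windows of 600 bp under the same limit on gene starts had 58.2% between genes, 34.5% in introns and 7.35% on exons. Shared peaks were between genes in 74.8%, in introns in 21.3% and on exons in 3.84%, and JB1-only distal peaks had nearly those same shares. Within the set, position went with copy number. Of the 8726 BJ1-only distal peaks without a repeated 32-mer, 44.2% were between genes, 39.0% in introns and 16.8% on exons, whereas of the 9755 mostly repeated ones 77.3% were between genes and 1.73% on exons.

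The median distance of the BJ1-only distal peaks to the closest protein-coding start was 47.1 kb, against 63.97 kb for shared peaks, 76.9 kb for JB1-only distal peaks and 70.3 kb for windows under the same limit. In the span from 5000 to 50000 bp lay 44.5% (44.0 to 45.1%) of the BJ1-only set and 36.1% of those windows. Just inside the limit of the rule, 88 BJ1-only distal peaks were at 1003 to 1150 bp from a start, and just outside it 77 BJ1-only peaks without ZFP57 were at 851 to 999 bp. Peak density by autosome ran from 13.4 per Mb on chromosome 16 to 17.7 per Mb on chromosome 5. Density varied more at a finer scale. Over the 2413 windows of 1 Mb with at least 1 such peak the median was 14 peaks (mean 14.8, SD 7.28). Of these windows 95% had 28 or fewer, and the most was 60.

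Although absent from the JB1 list, many of these peaks were close to JB1 peaks. The nearest JB1 KAP1 peak was within 1000 bp for 7.29% (7.02 to 7.57%) and within 10000 bp for 27.9% (27.4 to 28.4%) of BJ1-only distal peaks. Autosomal windows that overlapped no JB1 KAP1 peak were within these distances in 2.37% and 18.5%. The median gap was 26.7 kb for the peaks and 37.5 kb for those windows. At the border of the rule, 364 BJ1-only distal peaks directly adjoined a JB1 peak and 445 were 150 bp away, while 203 shared peaks had 150 bp in common with JB1 peaks. For 460 of the BJ1-only distal peaks (1.29%) the adjoining region was itself a BJ1 KAP1 peak that JB1 shared. The median gap to the nearest other BJ1-only distal peak was 16.8 kb, and for 37.5% (37.0 to 37.98%) it was within 10000 bp, with no comparison set for these gaps.

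Some of the peaks formed runs, in gene bodies and outside them. Joining peaks with gaps of up to 5 kb gave 1 run of 9 peaks, the longest by number, over 21.4 kb in *Etv5*, an ETS transcription factor that responds to FGF signalling. A run of 8 peaks over 12.2 kb lay in *Slc7a1*, a transporter of cationic amino acids, and 1 of the 3 runs of 7, over 16.7 kb, in *St3gal4*, a sialyltransferase. The other 2 runs of 7 were on chromosome 11 and lay in no protein-coding gene. By number, 26706 peaks had no neighbour at that distance.

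Among the 4623 protein-coding genes of at least 50 kb, the median was 1.07 BJ1-only distal peaks per 100 kb of gene. *Etv5* (chr16:22381382-22439792) had the most at 18.8 per 100 kb, with 11 BJ1-only distal peaks and 2 shared peaks in 58.4 kb. *Slc7a1* had 10 (13.8 per 100 kb) and *Tmem51*, a transmembrane protein gene, had 7 (13.1 per 100 kb). *Adap1*, which encodes an ArfGAP protein, had 7 BJ1-only distal peaks and no shared peak (13.0 per 100 kb). *Ccdc11* had 9 (11.7 per 100 kb), *Manba*, the lysosomal beta-mannosidase, had 9 (10.5 per 100 kb) and *Gm5150* had 6 (10.3 per 100 kb). *Zfp462*, a large zinc-finger gene, had 14 (10.1 per 100 kb), *Gm221* had 8 (10.0 per 100 kb) and *St3gal4* had 7 (9.97 per 100 kb). Shared peaks numbered 2 in *Slc7a1*, 1 in *Tmem51*, 4 in *Ccdc11* and 2 in *Manba*. There were 5 in *Zfp462*, 4 in *St3gal4* and none in *Gm5150* and *Gm221*.

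Counted without regard to length, the genes with the most BJ1-only distal peaks were long ones. *Gm20388* had 87 over an annotated span of 4435 kb, and *Fgfr2*, a receptor of FGF, had 51 over an annotated span of 3009 kb that runs over other genes. *Sntg1*, a syntrophin, had 29 in 938 kb. *Dst*, which encodes the cytoskeletal linker dystonin, had 19 in 400 kb, and the cadherin gene *Cdh18*, the alpha-catenin gene *Ctnna3* and *Hpse2* had 19 each. *Fhit* had 18, and *A830018L16Rik* and the cadherin gene *Cdh13* had 17 each. In the order named, these genes had 32, 19, 20, 2, 13, 6, 8, 13, 9 and 7 shared peaks. Per 100 kb the BJ1-only distal peaks ranged from 1.12 in *Fhit* to 4.75 in *Dst*.

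The 4 windows of 1 Mb with the most BJ1-only distal peaks differed in kind. The 60 peaks in the window of chromosome 13 that starts at 62000000, which holds *Zfp808*, *Zfp934* and *Zfp935*, were mostly repeated in 76.7%. The 58 peaks in the window at 66000000 of the same chromosome, with *Zfp640* and predicted genes, were mostly repeated in 96.6%. The 51 peaks at 105000000 on chromosome 5, with the *Gbp* family of interferon-induced GTPases, were so in 49.0%. In contrast, the 53 peaks at 29000000 on chromosome 7, a window with 42 protein-coding genes such as *Dll3* and *Sirt2*, were so in 18.9%. Shared peaks were dense in these windows too. In the order named, there were 44, 45, 24 and 17 of them, against 10.5 per Mb over the autosomes.

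Gene lists for ESC biology were then set beside all protein-coding genes, counting BJ1-only distal peaks within 50 kb of any annotated transcript start of a gene. A gene with several starts was thus searched over a longer span. Over all 21281 genes the mean was 2.01 peaks per gene (SD 1.81 over genes), 80.3% had 1 or more and 9.12% had 5 or more. Of 28 pluripotency genes, 27 had a peak, with a mean of 3.61 (SD 2.13), and 6 (21.4%) had 5 or more. *Esrrb*, an orphan nuclear receptor of the naive state, had 11 BJ1-only distal peaks and 2 shared peaks, and the former reached to 160 kb past the gene start. *Tet1*, which oxidises methylated cytosine, had 7 and 1, *Dppa3*, which protects maternal methylation after fertilisation, had 7 and 0, and *Jarid2*, a cofactor of Polycomb, had 5 and 0. *Trim71* and *Mycn* had 5 and 1 each. *Pou5f1* had 3 and 1, *Nanog* 4 and 1 and *Sox2* 2 and 0, and the gene without a peak was *L1td1*. These core factors were chosen for display after their values were seen.

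For shared peaks the pluripotency list did not lie above all genes. They numbered 0.786 per pluripotency gene (SD 0.917) against 1.17 over all genes (SD 1.62). Of 24 genes of LIF and other signalling pathways, 20 had a BJ1-only distal peak, the mean was 3.50 (SD 2.50) and 8 (33.3%) had 5 or more. *Lifr*, the LIF receptor, *Id2*, an inhibitor of helix-loop-helix factors, *Lefty1*, an inhibitor of Nodal, and *Spry2*, an inhibitor of receptor signalling, had 7 each, with 0, 1, 0 and 1 shared peaks. Shared peaks averaged 1 per gene in that list.

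The means of the other lists were closer to that of all genes. Of 23 lineage genes 19 had a BJ1-only distal peak, with a mean of 1.48 (SD 1.27), the highest being 6 at *Olig2*, a factor of the neural lineage, followed by 3 at *Otx2*. Of 22 genes of the KAP1 pathway 21 had one, with a mean of 2.50 (SD 1.87) and 4 genes (18.2%) at 5 or more, and the highest were 7 at *Morc3*, an ATPase of chromatin, 6 at *Atf7ip*, a partner of SETDB1, and 5 at both *Chd4*, of the NuRD complex, and *Dnmt3l*, a cofactor of DNA methylation. At the gene of KAP1 itself, *Trim28*, there was 1, and at *Zfp57* there were 3. Of 24 genes of liver and other differentiated tissues 17 had one, with a mean of 2.04 (SD 2.53) and 4 genes (16.7%) at 5 or more, in which *Nphs1*, a kidney gene, had 9, *Mb* and *Ckm*, of muscle, had 7 each and *Krt14* had 5. Genes within a list can share peaks where they are neighbours, and neither gene density near the starts nor the number of starts per gene was held constant.

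**Figure D3:**
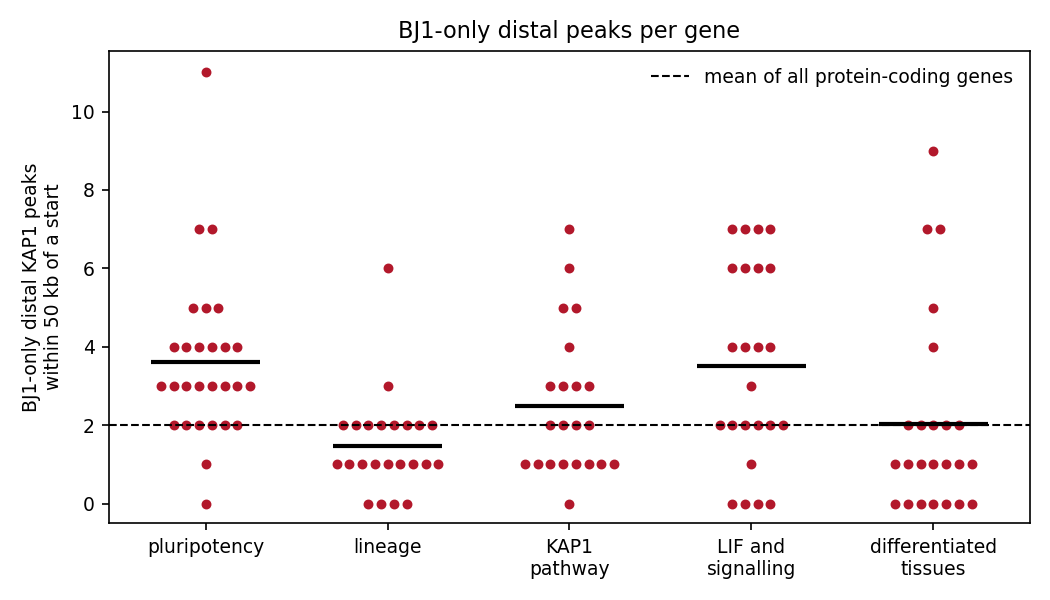
Number of BJ1-only distal KAP1 peaks within 50 kb of a transcript start on the y axis, with a point per gene, for the 5 gene lists on the x axis. Black bars are list means, and the dashed line is the mean of all protein-coding genes (2.01). The pluripotency and LIF lists have means of 3.61 and 3.50, and the lineage list lies lowest at 1.48.

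At *Esrrb* (chr12:87702067-87862578), 11 BJ1-only distal peaks lay in the gene or within 60 kb of it, 10 of them in the gene, with 2 shared peaks and 1 JB1-only peak. They were 450 to 900 bp wide, 8 were intronic, 2 touched an untranslated region and none was mostly repeated. Their distances to the nearest JB1 KAP1 peak ran from 2.40 to 98.9 kb. Around *Etv5* there were 14, of which 11 were in the gene and all of those lay between 23.4 and 56.6 kb from the gene start. The widest one there, 2550 bp (chr16:22409701-22412250), touched coding sequence. In the middle of the run were 2 shared peaks of 2250 and 2400 bp, and the BJ1-only peaks on their sides were only 0.3 kb from a JB1 peak. Around *Tet1* there were 8, with 4 of them in the gene, and the only shared peak lay 13.5 kb upstream of the start. Around *Dppa3*, a gene of 3.86 kb, there were 9 and all lay outside of the gene, no shared or JB1-only peak was present, and the closest JB1 KAP1 peak was 63.5 kb or more from each. Of the BJ1-only distal peaks, 2 around *Etv5*, 1 around *Dppa3* and none around *Tet1* were mostly repeated. No ZFP57 peak lay in any of these 4 surroundings.

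**Figure D4:**
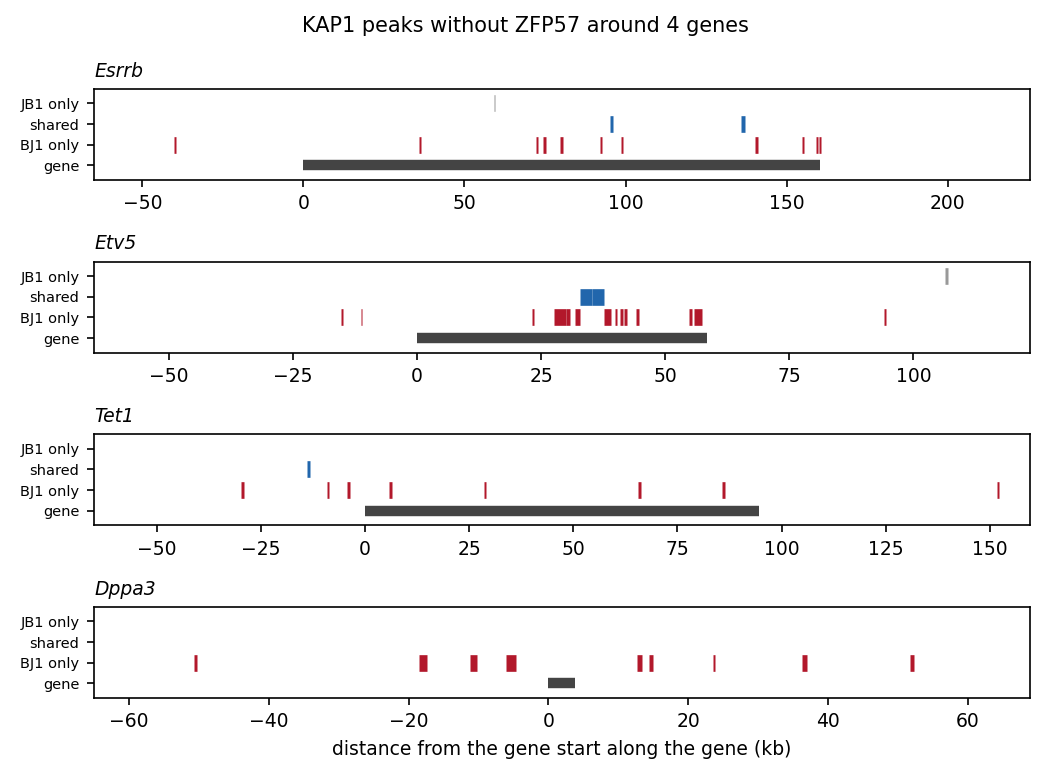
KAP1 peaks without ZFP57 around *Esrrb*, *Etv5*, *Tet1* and *Dppa3*, drawn to scale with the distance from the gene start along the gene on the x axis (kb) and rows for BJ1-only (red), shared (blue) and JB1-only distal peaks (grey), with the gene as a dark bar. The 4 panels differ in scale. The 9 BJ1-only peaks around *Dppa3* stand alone, whereas those of *Etv5* surround 2 wide shared peaks.

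Short motifs of ESC factors and those of AP-1 and CTCF were searched in the BJ1-only peaks around these genes, and these 5 motifs gave 13 matches, none of them to the CTCF motif and none around *Dppa3*. They were searched in 11 peaks around *Esrrb*, 14 around *Etv5*, 8 around *Tet1* and 9 around *Dppa3*, and nothing about these genes is read from their number. Over the whole set the octamer was in 4.74%, the ESRRB motif in 1.69%, the KLF motif in 7.57%, the CTCF motif in 3.30% and the AP-1 motif in 11.3% of peaks. These shares count the central 600 bp only, whereas around these genes whole peaks were searched, so the 2 are not on the same measure. The octamers, the ESRRB motifs and a KLF motif beside them are printed to show which letters lie under the peaks. The matches not printed were 1 KLF motif each in *Esrrb* and *Etv5* and AP-1 motifs, 1 in *Esrrb* and 4 in *Etv5*. Each printed match is shown with 15 bp on either side, on the plus strand of mm9, with the match in capitals. An octamer (ATGCAAAT, the motif of OCT4 and its relatives) was found in peaks centred 92.4 kb into *Esrrb*, 28.8 kb into *Etv5* and 4.01 kb upstream of *Tet1*.

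Esrrb (chr12:87794794-87794831): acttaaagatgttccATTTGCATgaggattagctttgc
Etv5 (chr16:22412023-22412060): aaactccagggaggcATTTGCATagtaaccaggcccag
Tet1 (chr10:62365742-62365779): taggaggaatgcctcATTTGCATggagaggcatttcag

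A 900 bp peak centred 141 kb into *Esrrb* had the motif of ESRRB itself (TCAAGGTCA) in both orientations, and a KLF motif (GGGTGTGG) on the minus strand near them.

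Esrrb (chr12:87842994-87843032): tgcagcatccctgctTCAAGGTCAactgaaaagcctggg
Esrrb (chr12:87842652-87842690): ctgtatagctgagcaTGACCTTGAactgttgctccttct
Esrrb (chr12:87842568-87842605): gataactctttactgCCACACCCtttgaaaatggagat

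A match describes the letters and not occupancy. Over the whole set, 11 motifs were counted as exact matches on both strands of the central 600 bp, which reach beyond peaks narrower than that. The values are set beside windows over 1000 bp from protein-coding starts, as they are and weighted to the GC content of the peaks, because BJ1-only distal peaks had a mean GC content of 47.2% (SD 6.2 over peaks) against 41.8% in those windows. The shared peaks had 47.3% and the JB1-only distal peaks 43.3%. The median CpG ratio was 0.208 in the BJ1-only set, 0.341 in shared peaks, 0.236 in JB1-only distal peaks and 0.157 in the windows.

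Over the whole set the ZFP57 hexamers were 1.14 times as frequent as in windows of the same GC content. TGCCGC or GGCCGC was present in 13.1% (12.7 to 13.4%) of BJ1-only distal peaks, 5.69% of the windows and 11.5% of windows weighted to the same GC content. In the shared peaks, from which ZFP57 peaks were removed in the same way, it was present in 26.4%, which was 2.12 times the weighted share, and in the JB1-only distal peaks in 27.7%, or 3.94 times. TGCCGC alone was in 7.04%, 17.5% and 21.7% of these 3 sets. The BJ1-only set was not uniform in this. Among its peaks without a repeated 32-mer 18.6% had either hexamer, 1.45 times the weighted share, and among mostly repeated ones 13.6%, or 0.910 times. TGCCGC alone was in 11.1% (10.4 to 11.8%) and 4.45% of these parts, with weighted shares of 7.00% and 7.66%. Shared peaks without a repeated 32-mer had either hexamer in 23.8%, or 1.77 times the weighted share. The windows were weighted by GC content only and kept repeated sequence, so they differ in copy number from these parts, and all 11 motifs were above them in the BJ1-only peaks without a repeated 32-mer, the E-box least with a ratio of 1.09. Starts of such hexamers less than 38 bp apart occurred in 217 BJ1-only distal peaks (0.610%) and in 734 shared peaks (2.91%). These were counted over whole peaks, of which the shared ones are wider, and no share over windows was computed. The hexamers overlap in their last 5 letters but not at the same place and strand, whereas GGCCGC matches on opposite strands can overlap, and such overlaps count as close starts.

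Motifs of other factors gave a different order. The KLF motif GGGTGTGG was in 7.57% (7.30 to 7.85%) of BJ1-only distal peaks, 3.61% of windows, 5.48% of windows of the same GC content and 3.83% of shared peaks. The AP-1 motif TGACTCA was in 11.3% (10.9 to 11.6%) of BJ1-only distal peaks, 9.75% of windows of the same GC content and 6.50% of shared peaks. Part of the CTCF consensus, CCACNAGGG, was in 3.30% against 2.72% and 2.18%, and the ESRRB motif in 1.69% against 1.48% and 1.17%. These 4 were above the weighted windows in the BJ1-only set and below them in the shared set. For KLF and CTCF the latter rested on the weighting, as the windows as they are had these motifs in 3.61% and 1.70%. In JB1-only distal peaks KLF was also above the weighted windows, with a ratio of 1.18, and AP-1 was below them at 0.661. There the ratios of CTCF (0.941) and ESRRB (0.783) had intervals that included the windows. For all of them but CTCF the ratio in the BJ1-only set was lower where sequence was repeated. Among BJ1-only peaks without a repeated 32-mer the ratios were 1.40 for KLF, 1.26 for AP-1, 1.27 for CTCF and 1.44 for ESRRB, and among mostly repeated ones 0.934, 0.778, 1.36 and 0.263. Among shared peaks without a repeated 32-mer AP-1 had a ratio of 1.29, and those of KLF (1.08), CTCF (1.02) and ESRRB (1.13) had intervals that included the windows. Over the whole sets the octamer was above the weighted windows in both, with 4.74% in BJ1-only distal peaks and 4.62% in shared peaks against 3.51% and 3.63%. Among peaks without a repeated 32-mer it was in 5.04% of BJ1-only and 3.18% (2.46 to 4.04%) of shared ones, against 3.22% and 3.34%. The SOX motif CATTGTT was in 9.13% of BJ1-only distal peaks against 8.83% of weighted windows, and in 11.6% of shared peaks. The E-box CACGTG was below, with 7.11% against 7.71%. For these 3 motifs the direction in BJ1-only distal peaks also rested on the weighting, since the windows as they are had the octamer in 5.16%, the SOX motif in 11.7% and the E-box in 5.84%. The same held for the octamer in shared peaks.

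The REST and CRE motifs were also more frequent in shared peaks. TTCAGCACC, a part of the consensus of REST, the repressor of neuronal genes, was in 1.30% (1.19 to 1.43%) of BJ1-only distal peaks and in 4.18% of shared peaks, with 0.728% and 0.707% in their weighted windows. The CRE motif TGACGTCA was in 0.368% and 1.37%, with 0.492% and 0.483% in their weighted windows. For peaks without a repeated 32-mer the REST shares were 0.986% (0.789 to 1.22%) and 0.845% (0.493 to 1.35%), so that the sets overlapped in their intervals there, and the KLF shares were 8.21% (7.64 to 8.80%) and 6.16% (5.15 to 7.30%). The CRE shares there were 0.791% and 0.944%, with 0.522% and 0.510% in their weighted windows, so that CRE lay above the weighted windows in that part of the BJ1-only set and below them over the whole set. The latter rested on the weighting, as 0.326% of the windows as they are had the CRE motif. Runs of tandem repeats of at least 24 bp with a unit of up to 6 bp were in 11.7% of BJ1-only distal peaks, 5.68% of shared peaks and 14.7% of the windows.

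**Figure D5:**
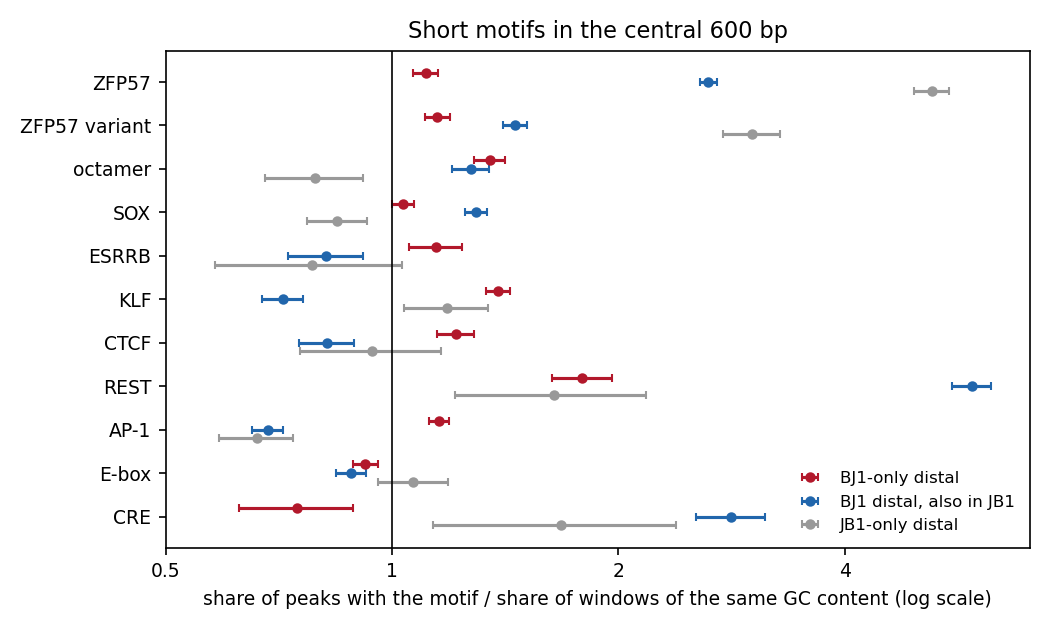
Ratio of the share of peaks with a motif to that of windows with the same GC content on the x axis (log scale), for 11 motifs named by their factors on the y axis, in BJ1-only distal (red), shared (blue) and JB1-only distal peaks (grey). Bars are Clopper-Pearson 95% intervals of the peak shares, and the vertical line marks equal shares. The ratios of TGCCGC (named ZFP57) were 1.11, 2.64 and 5.23 in the 3 sets.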

How the data were processed

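Peak lists of the 4 ChIP libraries were used, and input libraries were not analysed here. The authors sequenced single-end reads, trimmed them with CASAVA 1.8.2 and Trim Galore, aligned them to mm9 with Bowtie 0.12.7 and called peaks per library with MACS, and per the labels SAMtools 0.1.18 and bedtools 2.14.3-1 were used. The deposited lists hold start and end positions only (another kind of value than counts or scores), counted from 1. Overlap meant at least 1 bp. Features came from the mm9 sequence and GENCODE M1, in the order coding sequence, untranslated region, other exon, intron, between genes. The rule used gene starts and the lists used transcript starts. Of 122 listed genes 121 were matched, 1 of them by an older name through RefSeq names (GRCm38.p6), and *Sox1* was not. Copies of 32-mers were counted on both strands of the whole assembly. Windows were weighted in GC bins of 2%. Python 3.11.15, numpy 2.4.6, pandas 2.3.3, scipy 1.17.1, numba 0.67.0 and matplotlib 3.10.9 were used, and the interval and copy functions were tested on simulated data. The regions and lists were chosen with earlier results of these data known. No test was made. Named were the widest peaks, the genes and 1 Mb windows with the most peaks, the leading genes of each list, and the peaks with the most hexamers or highest CpG ratio, the last ranked without chromosome 18. Other names were chosen after their values were seen. One further 1 Mb window is not reported here. Alternatives are given in the closing section.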

Additional observations from a re-analysis of the deposited data

Results flagged for a closer look

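Peaks outside the autosomes were in no comparison above. On chromosome X, 1864 of the 3935 BJ1 KAP1 peaks (47.4%) met every other condition of the rule, and on chromosome Y 45 of 129 (34.9%) did, against 52.0% on the autosomes. They were singled out as a signal in data that the comparisons did not use, and no control list is at hand to set them against.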

How the results depend on the processing

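Depth and peak height limit these results, as neither is in the lists and a peak absent from JB1 can be one under its threshold. The number of BJ1-only distal peaks stayed within 1.5 times of 35598 under 5 of 6 alternatives, from 32976 to 36804, and was 18141 with peaks of at least 600 bp only. The median width was 600 bp under all 6. Other values are called moved where they left the 95% interval of the reported value, which is narrow with this many peaks. With JB1 peaks within 1000 bp also removing a peak, 61.9% lay between genes and 30.5% in introns, 22.2% had a JB1 KAP1 peak within 10000 bp, the GC content was 47.4%, the CpG ratio 0.206 and the share of mostly repeated peaks 25.4%. With JB1 peaks required to cover 50% of a peak, the share within 10000 bp was 26.99%, the GC content 47.3%, the CpG ratio 0.210 and the mostly repeated share 28.2%. Over 5000 bp from starts, 63.9% lay between genes, the GC content was 47.1% and the mostly repeated share 28.4%. Over 1000 bp from starts of all gene types, 63.6% lay between genes. With peaks of at least 600 bp only, 61.6% lay between genes, 29.8% had a JB1 KAP1 peak within 10000 bp, the GC content was 48.1%, the CpG ratio 0.224, the hexamer share 14.5%, the mostly repeated share 27.98%, and 10 of the 24 genes of differentiated tissues had a peak, while the share over all protein-coding genes was 59.9% in place of 80.3%. Without chromosome 5 the GC content was 47.16%, and over whole peaks it was 47.5%. The hexamer share was 8.89% in a 300 bp window. Within 20000 bp of a start, 10 of 23 lineage genes (43.5%) had a peak, against 51.7% of all protein-coding genes. The share of masked bases could not be had, as the genome sequence at hand carries no masking, and copies of 32-mers, a measure chosen after seeing the data, took its place. So were the weighting by GC content and the split by copy number.
No paired analysis was possible because each line and antibody has 1 library and no test was made.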
